A study of Sus scrofa with 4 samples.

Results

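The cyclin-dependent kinase inhibitors CDKN1A, CDKN1B, CDKN1C, CDKN2A, CDKN2B, CDKN2C and CDKN2D were followed in pig (Sus scrofa) follicle granulosa cells, the somatic cells around the oocyte, after interference with YTHDF2. They were chosen by gene symbol as the CIP/KIP family (3 genes) and the INK4 family (4 genes), and all 7 were found among the 20491 genes of the deposited table. All 7 also passed the filter on low counts, which left 15552 genes to test. The groups were 2 libraries of cells transfected to interfere with YTHDF2 (siYTHDF2 below) and 2 libraries of cells transfected with a negative control (control below). Neither a BDNF treatment nor the siRNA used, the time after transfection, the age of the animals or separate cultures are named in the labels. The p-values therefore reflect spread between libraries that could be purely technical. By its title, the series concerns the role of YTHDF2 in the growth stimulus that BDNF, a neurotrophin, gives these cells.

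A cell enters S phase when cyclin-dependent kinases phosphorylate RB and so free the E2F transcription factors. The INK4 proteins (p16, p15, p18 and p19) bind CDK4 and CDK6 and keep D-type cyclins away from them. The CIP/KIP proteins (p21, p27 and p57) bind cyclin-kinase complexes, block those of CDK2, and also help D-type cyclins to assemble with CDK4. In rodent ovaries p27 and p21 are known for the arrest of granulosa cells as they become luteal cells. YTHDF2 binds N6-methyladenosine in mRNA and recruits the machinery that degrades the bound transcript.

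Of the 7 inhibitors, CDKN1A rose, CDKN2B fell and 5 did not pass the test. CDKN1A, which encodes p21, had 387 ± 13.1 CPM in siYTHDF2 cells and 199.7 ± 0.35 CPM in control cells (SD, n = 2 each), 1.94-fold higher. CDKN2B, which encodes p15, had 15.1 ± 0.416 CPM in siYTHDF2 cells and 34.9 ± 0.768 CPM in control cells (SD, n = 2 each), 2.31-fold lower. CPM are counts relative to library size, scaled between libraries by TMM. A gene was called where its p from the quasi-likelihood test of edgeR, adjusted by Benjamini-Hochberg over all 15552 genes, was under 0.05. By that rule 9.05% of all genes tested were called higher and 10.6% lower, 19.6% in all, so 1 higher and 1 lower of 7 is near the background. The median log2 fold change (siYTHDF2 over control) was 0.26 over the 7 inhibitors and 0.00070 over all genes tested. An unadjusted p under 0.05 was reached by 4 of the 7. Such a p was common, since the gene ranked 5116 of 15552 by p still had an unadjusted edgeR p of 0.0492.

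**Figure D1:**
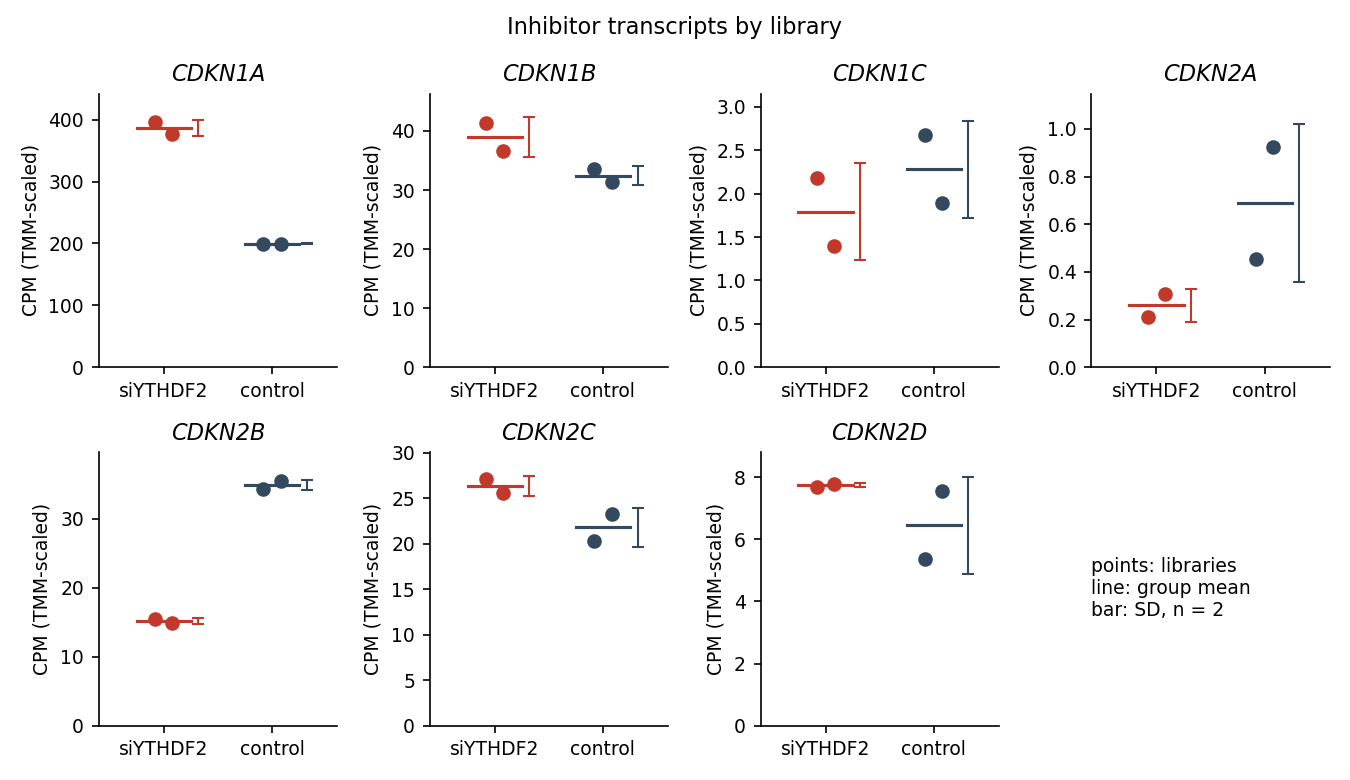
TMM-scaled CPM of each inhibitor gene (vertical axes, each from 0) in siYTHDF2 and control libraries. Points are libraries, lines are group means and bars are SD with n = 2. The siYTHDF2 points of CDKN1A lie at 396 and 377 CPM, above both control points, and those of CDKN2B at 15.4 and 14.8 CPM, below both control points.

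The libraries had total counts of 47209177 to 54841851. YTHDF2 itself had 23.6 and 23.2 CPM with siYTHDF2, against 69.5 and 62.1 CPM in the control (log2 fold change -1.49, SE 0.09, edgeR adjusted p = 1.49e-05). Of 16 granulosa markers, 15 passed the filter on low counts, and 2 of these were called higher and 1 lower. These calls make 20.0%, beside 19.6% of all genes. FSHR, the follicle-stimulating hormone receptor, lay at 10.2 to 11.5 CPM and the transcription factor FOXL2 at 4.35 to 6.38 CPM. The aromatase gene CYP19A1 lay at 0 to 0.203 CPM and was too low to test. The summed granulosa markers overlapped between groups, at 3431 and 3566 CPM with siYTHDF2 and 3578 and 3408 CPM in the control. Within that sum GJA1, a gap junction gene, had 2106 and 2246 CPM with siYTHDF2, against 2515 and 2386 CPM in the control (edgeR adjusted p = 0.104). The called members were SERPINE2 at a log2 fold change of 0.98, CDH2 at 0.31 and INHBB at -0.69. The 12 theca and stroma markers in the table summed to 13100 and 12780 CPM with siYTHDF2 and 22800 and 23500 CPM in the control. ACTA2, smooth muscle actin, made up 6286 to 12800 CPM of that sum. Of the 12, 8 were lower and 1, DES, was higher, which is 75.0% called beside 19.6% of all genes. In bulk RNA, fewer cells of a type and less RNA per cell cannot be told apart, and the part of this shift in the changes of the inhibitors was not tested. Endothelial markers summed to 30.0 and 28.2 CPM with siYTHDF2 and 28.5 and 25.6 CPM in the control. Most of that sum was ERG, at 9.68 to 14.5 CPM, and PECAM1, at 11.9 to 14.5 CPM, neither of them called. Of 5 tested, 1, VWF, was called higher, being listed at 0 in both control libraries, a call lost in DESeq2 and limma. Leukocyte markers summed to 6.64 and 6.07 CPM with siYTHDF2 and 8.11 and 8.57 CPM in the control, with PTPRC at 0 to 0.13 CPM and the smallest adjusted p of the 5 tested, 0.101, for CD14. Epithelial markers summed to 5.06 and 5.62 CPM with siYTHDF2 and 8.24 and 7.90 CPM in the control, with EPCAM at 0 in 3 libraries and 0.074 CPM in the other, and 1 of 4 tested, CLDN4, was called lower at 0 in both siYTHDF2 libraries, a call lost in 8 of 12 alternatives. Oocyte markers summed to 10.2 and 11.8 CPM with siYTHDF2 and 9.99 and 11.1 CPM in the control. The part of these sums in the inhibitors' values was not tested.

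CDKN1A was the most abundant inhibitor and the one that rose. The gene, ENSSSCG00000001565, lies on the plus strand of chromosome 7 from 32359455 to 32363761 in the deposited table, for which the sources used here give no genome build. Its deposited counts were 18841 and 20812 in the siYTHDF2 libraries, against 10506 and 10807 in the control libraries. Both siYTHDF2 libraries stood well above both control libraries, and the scaled replicates of a group differed by at most 1.05-fold. On the log2 scale the fold change was 0.95 (SE 0.06, 95% interval 0.81 to 1.10, edgeR adjusted p = 2.34e-05), and the gene ranked 47 of 15552 by p. p21 is the inhibitor best known as a target of p53, and it also binds the replication clamp PCNA.

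CDKN1B, which encodes p27, the inhibitor that accumulates in resting cells and is removed by the SKP2 ubiquitin ligase, lies on chromosome 5 from 59731206 to 59735831 on the minus strand. Its CPM was 41.3 and 36.5 with siYTHDF2, against 33.5 and 31.3 in the control. The groups did not overlap, but the lower siYTHDF2 library stood only a few CPM above the higher control library. The log2 fold change of 0.26 (SE 0.10, 95% interval 0.04 to 0.49) did not pass after adjustment (edgeR adjusted p = 0.0966, unadjusted p = 0.0260). The interval reaches from near 0 to well below the change of CDKN1A.

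CDKN1C, which encodes p57, an inhibitor that is imprinted in humans and mice, lies on chromosome 2 from 2019830 to 2021853 on the minus strand. Its deposited counts were 104 and 77 with siYTHDF2, against 141 and 102 in the control, and its CPM was 2.185 and 1.40 with siYTHDF2, against 2.68 and 1.89 in the control. It was the only one of the 7 whose groups overlapped, since siYTHDF2 replicate 1 stood above control replicate 2. The log2 fold change was -0.35 (SE 0.34, 95% interval -1.12 to 0.41, edgeR adjusted p = 0.530). At this depth the interval spans both a fall of more than 1 log2 unit and a small rise. Within each group the replicates of CDKN1C differed by 1.57-fold with siYTHDF2 and 1.42-fold in the control.

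CDKN2B was the INK4 gene that changed. The gene, ENSSSCG00000034120, lies on the plus strand of chromosome 1 from 200761004 to 200766056. The RefSeq start minus this deposited start is -94754 bases. The same difference is -4679 for CDKN1A, -439 for CDKN1C, 18 for CDKN1B, -7 for CDKN2C and -4 for CDKN2D. The extent of the gene model behind the CDKN2B counts is thus uncertain. Its deposited counts were 734 and 818 with siYTHDF2, against 1810 and 1916 in the control. Both siYTHDF2 libraries lay below both control libraries by more than 2-fold, and replicates differed by at most 1.04-fold. Its log2 fold change was -1.21 (SE 0.10, 95% interval -1.44 to -0.98, edgeR adjusted p = 8.45e-05), and the gene ranked 112 by p. p15 is the INK4 inhibitor known to be induced by TGF-beta through SMAD proteins.

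CDKN2A, which encodes p16 and, in another reading frame, the p53 activator ARF, lies 26412 bases beyond CDKN2B on the same strand of chromosome 1, from 200792469 to 200798854. It was nearly silent, and its deposited counts were 10 and 17 with siYTHDF2, against 24 and 50 in the control. In CPM these were 0.210 and 0.308 with siYTHDF2, against 0.456 and 0.925 in the control. Both siYTHDF2 libraries were lower, but the control replicates alone differed by 2.03-fold. A log2 fold change of -1.40 (SE 0.72, 95% interval -3.04 to 0.22) did not pass the test (edgeR adjusted p = 0.214). With limma on log2(FPKM + 1) CDKN2A was called lower by 0.48 on that scale (adjusted p = 0.000113), and with a pseudocount of 0.1 its log2 fold change was -1.19 (adjusted p = 0.00212). CDKN2A and CDKN2B share closely similar coding sequence in humans, and how the authors' counting split such reads is not given. The value of CDKN2A is therefore uncertain, and the same limit applies to CDKN2B. RefSeq transcripts under the symbol CDKN2A were not found. The table gives 1 value for the gene, so p16 and ARF transcripts cannot be told apart.

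CDKN2C, which encodes p18, lies on chromosome 6 from 161160297 to 161166529 on the minus strand. Its CPM was 27.1 and 25.5 with siYTHDF2, against 20.3 and 23.3 in the control. The siYTHDF2 libraries were both higher, by a small margin. Its log2 fold change of 0.27 (SE 0.11, 95% interval 0.02 to 0.52) did not pass after adjustment (edgeR adjusted p = 0.123, unadjusted p = 0.0368).

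CDKN2D, which encodes p19, lies on chromosome 2 from 69337432 to 69339933 on the minus strand. Its CPM was 7.69 and 7.78 with siYTHDF2, against 5.35 and 7.55 in the control. The siYTHDF2 replicates nearly coincided, whereas the control replicates differed by 1.41-fold. The log2 fold change was 0.26 (SE 0.20, 95% interval -0.18 to 0.70, edgeR adjusted p = 0.404), and without control replicate 1 it was 0.03.

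Across the 7, both siYTHDF2 libraries lay above both control libraries for 4 genes and below them for 2. Among all genes tested, 30.1% lay wholly above and 30% wholly below, so separation of this kind was common in these libraries and most of the inhibitors that separated did not pass the test.

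**Figure D2:**
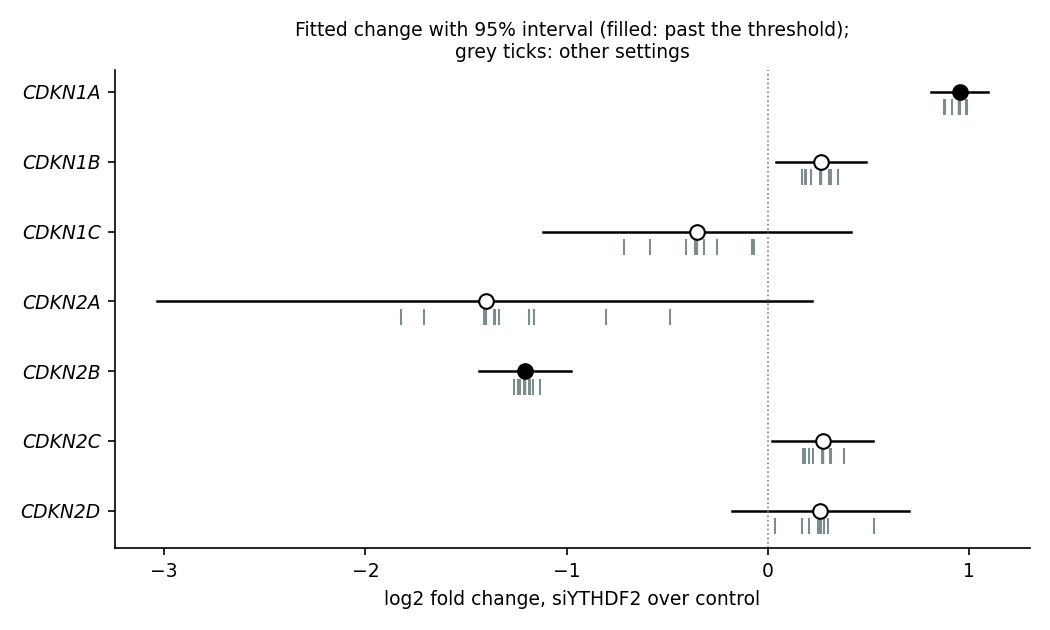
Log2 fold change of each inhibitor, siYTHDF2 over control (horizontal axis), with its 95% interval. Filled points passed edgeR's test, and grey ticks give the value under each other setting. CDKN1A at 0.95 and CDKN2B at -1.21 stand clear of 0 in every setting shown, and CDKN2A at -1.40 has an interval from -3.04 to 0.22.

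Levels of different genes were set beside each other in FPKM, by its name a value per transcript length and library size. The deposited FPKM did not follow the count totals of the libraries. CDKN1B had 41.3 and 36.5 CPM in siYTHDF2 replicates 1 and 2, but 24.0 and 24.6 FPKM. FPKM compared between libraries can thus carry differences in depth, whereas the order of genes within a library does not. That order does depend on the length behind each FPKM, and the extent of the CDKN2B gene model is uncertain, as given above. CDKN1A stood first, at 158 and 174 FPKM with siYTHDF2 and 89.4 and 90.9 FPKM in the control, and its mean over the 4 libraries exceeded that of 98.1% of genes tested. CDKN1B followed at 24.0 and 24.6 FPKM with siYTHDF2 and 21.9 and 20.7 FPKM in the control. Then came CDKN2B, CDKN2C and CDKN2D, with means over the 4 libraries of 8.61, 8.43 and 4.93 FPKM. CDKN1C at 1.40 and CDKN2A at 0.568 FPKM were last, with CDKN2A above 24.4% of genes tested. CDKN2B and CDKN2C were the neighbours whose order depended on the group. With siYTHDF2, CDKN2B had 4.76 and 5.30 FPKM and CDKN2C 8.63 and 9.40 FPKM, whereas in the control CDKN2B had 11.9 and 12.5 FPKM and CDKN2C 7.23 and 8.44 FPKM. CDKN2C was thus above CDKN2B in both siYTHDF2 libraries and below it in both control libraries. CDKN2D, with 4.85 and 5.68 FPKM in the siYTHDF2 libraries, lay slightly above CDKN2B within each of them. In both control libraries CDKN2D lay below CDKN2B, with 3.79 and 5.43 FPKM. CDKN1C and CDKN2A overlapped over the 4 libraries and were apart within each group.

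The summed level of the CIP/KIP genes was higher with siYTHDF2 and that of the INK4 genes lower. The CIP/KIP genes summed to 192 ± 11.8 FPKM with siYTHDF2, against 113.1 ± 0.200 FPKM in the control (SD, n = 2 each). The INK4 genes summed to 18.4 and 20.8 FPKM with siYTHDF2, against 23.5 and 27.5 FPKM in the control. CDKN1A made up 78.3% and 79.0% of the summed FPKM of the 7 inhibitors with siYTHDF2, against 65.4% and 64.7% in the control. CDKN2B made up 25.8% and 25.5% of the INK4 sum with siYTHDF2, against 50.7% and 45.4% in the control. CDKN2C made up 46.8% and 45.3% of it with siYTHDF2, against 30.8% and 30.7% in the control. By FPKM the most abundant INK4 transcript was CDKN2C in siYTHDF2 cells and CDKN2B in control cells. This rank, like the size of the shares, is limited by the uncertain gene model of CDKN2B. The sums, unlike the shares, depend on the scaling of FPKM between libraries. Neither the sums nor the shares were tested.

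**Figure D3:**
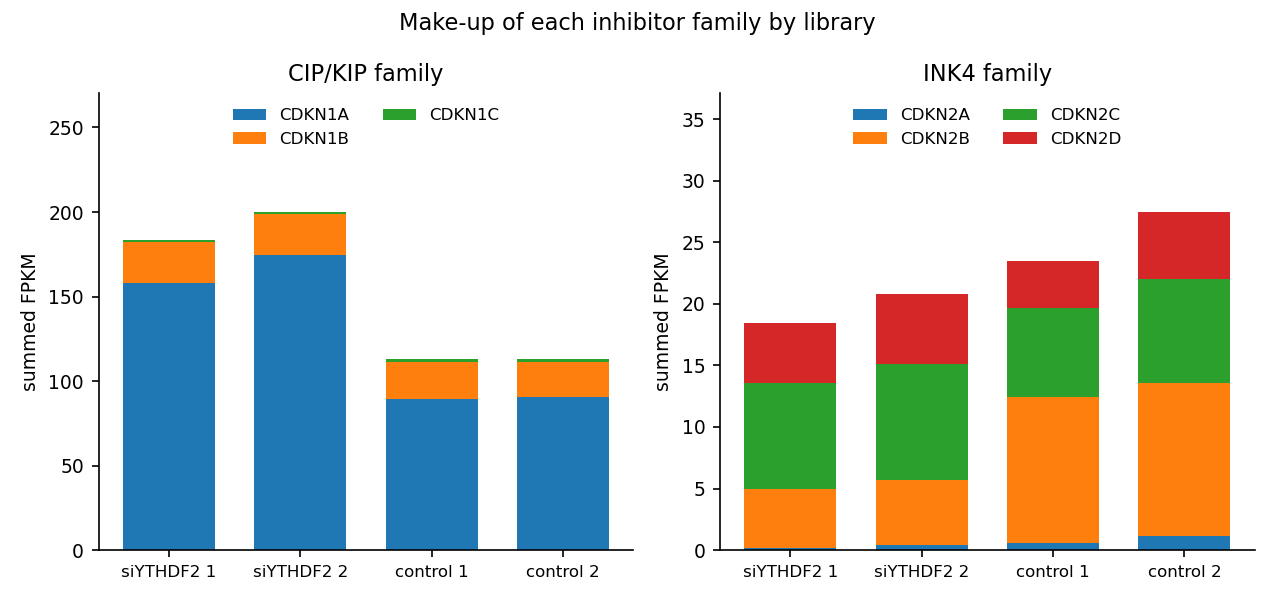
Summed FPKM (vertical axes from 0, with different scales) of the CIP/KIP and INK4 genes in each library, stacked by gene. CDKN1A fills most of the CIP/KIP bars, which reach a mean of 192 FPKM with siYTHDF2 and 113.1 FPKM in the control. The CDKN2B segment is 4.76 and 5.30 FPKM with siYTHDF2 and 11.9 and 12.5 FPKM in the control.

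Ratios within a library do not depend on scaling between libraries. CDKN1A per CDKN2B was 33.2 and 32.9 with siYTHDF2, against 7.50 and 7.29 in the control, a 4.47-fold difference of the means. CDKN1A per CDKN1B was 6.58 and 7.10 with siYTHDF2, against 4.09 and 4.39 in the control. Both siYTHDF2 libraries lay on the same side each time. The first ratio restates the calls of its 2 genes, and neither ratio was tested.

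Set against transcripts of the proteins they bind, the summed FPKM of each family were closer together between the groups. The D-type cyclins CCND1, CCND2 and CCND3 summed to 47.2 and 52.0 FPKM with siYTHDF2, against 28.0 and 30.7 FPKM in the control. The CIP/KIP sum per D-type cyclin sum was 3.88 and 3.85 with siYTHDF2, against 4.04 and 3.67 in the control, and the groups overlapped. CDK4 and CDK6 summed to 70.9 and 77.4 FPKM with siYTHDF2, against 90.7 and 92.7 FPKM in the control. The INK4 sum per CDK4 and CDK6 sum was 0.260 and 0.268 with siYTHDF2, against 0.259 and 0.296 in the control, again with overlap. CDKN1A per CCND1 did separate, at 4.95 and 4.89 with siYTHDF2, against 6.57 and 6.64 in the control. CDKN1A per CDK2 separated the other way, at 11.9 and 11.6 with siYTHDF2, against 8.17 and 7.30 in the control. The sums weigh each gene by the length behind its FPKM. In siYTHDF2 replicate 1 CCND3 had 99.1 CPM but 8.08 FPKM, whereas CCND1 had 176 CPM and 31.9 FPKM. The overlap of the summed ratios was found in FPKM and need not hold in CPM. These are ratios of RNA and say nothing of protein.

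**Figure D4:**
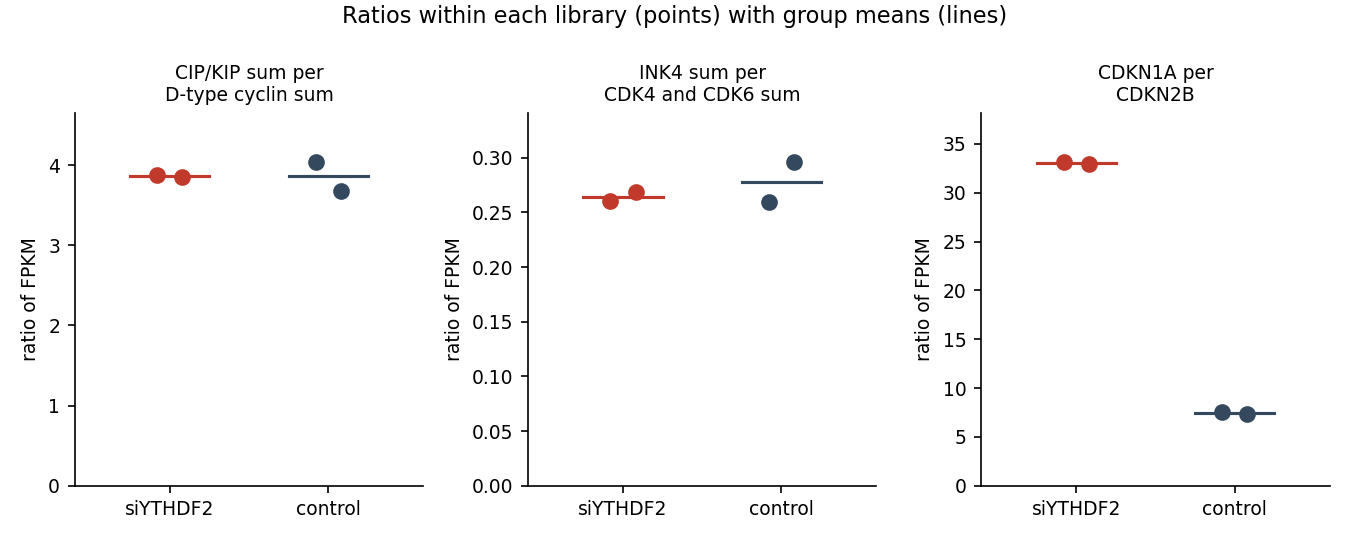
Ratios of FPKM within each library (vertical axes from 0), with points for libraries and lines for group means. In FPKM, where each gene is weighed by its length, the 2 groups overlap for CIP/KIP per D-type cyclin (means 3.86 with siYTHDF2 and 3.86 in the control). They also overlap for INK4 per CDK4 and CDK6 (0.264 and 0.278). The groups separate for CDKN1A per CDKN2B (33.0 and 7.40).

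Among 18 tested cyclins, kinases and direct CDK regulators, 8 were higher and 1 lower, with a median log2 fold change of 0.27. That is 50.0% called, beside 19.6% of all genes. CCND1, which encodes cyclin D1, had 176 and 169.9 CPM with siYTHDF2, against 66.8 and 66.2 CPM in the control (log2 fold change 1.38, SE 0.07, edgeR adjusted p = 6.91e-06). WEE1, the kinase that holds CDK1 inactive, rose by 0.45 on the log2 scale (SE 0.07, edgeR adjusted p = 0.00334). The mitotic cyclin CCNB1 rose by 0.43 (SE 0.07, adjusted p = 0.00412) and CCNA2, the cyclin of S and G2 phase, by 0.38 (SE 0.08, adjusted p = 0.0103). The partner kinases moved by less. CDK2 was called higher at 0.34 (SE 0.09, adjusted p = 0.0285) and CDK4 lower at -0.24 (SE 0.07, adjusted p = 0.0330), while CDK6 stood at -0.11 (SE 0.17, adjusted p = 0.719). In limma on log2(FPKM + 1) the calls in this group numbered 1 in place of 9, that of CCND1. Over all genes limma called 574 higher and 1529 lower, in place of 1408 and 1644 in edgeR. Leaving out single libraries also lowered the number of calls, both in this group and over all genes. The CDK2 call was lost in 6 and the CDK4 call in 7 of 13 alternatives, the replicate block and the fit without control replicate 1 among them for both.

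The RB, E2F and DREAM genes, whose proteins act downstream of these kinases, showed no call at the RNA level. Of 19 tested members none passed in edgeR, DESeq2 or limma, beside 19.6% of all genes called in edgeR. An unadjusted p under 0.05, common among all genes as given above, was reached by 4 in edgeR, 3 in DESeq2 and 2 in limma. The median log2 fold change was -0.06, and the values ran from -0.46 to 0.27. TFDP2, a partner of E2F, was nearest to a call at -0.40 (SE 0.13, edgeR adjusted p = 0.0605), followed by MYBL2, a transcription factor of G2 genes, at 0.19 (SE 0.07, adjusted p = 0.0826). E2F3, an activating E2F, stood at -0.26 (SE 0.10, adjusted p = 0.0883) and E2F7, a repressing E2F, at -0.43 (SE 0.18, adjusted p = 0.139). RB1 itself had 35.6 and 31.6 CPM with siYTHDF2, against 36.5 and 43.1 CPM in the control (edgeR adjusted p = 0.155). Leaving out a library gave calls in this list for TFDP2 and E2F7 without control replicate 2 and for E2F2 without siYTHDF2 replicate 2.

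S phase genes that E2F is known to drive had 1 higher and 4 lower of 19 tested members, with a median of -0.02. That is 26.3% called, beside 19.6% of all genes. UHRF1, which maintains DNA methylation at replication forks, fell by 0.48 (SE 0.08, edgeR adjusted p = 0.00406) and POLE, the catalytic subunit of a replicative polymerase, fell by 0.48 (SE 0.10, adjusted p = 0.00840). RRM1, the large subunit of ribonucleotide reductase, fell by 0.31 (SE 0.06, adjusted p = 0.00995) and PCNA by 0.37 (SE 0.08, adjusted p = 0.0123). TYMS, thymidylate synthase, was the higher member, chosen after its values were seen, at 0.26 (SE 0.08, adjusted p = 0.0417), a call lost in 7 of 13 alternatives, with the replicate block, limma and 3 of the 4 fits without a library among them. Without control replicate 2 PCNA stood at -0.28 and no longer passed. Limma on log2(FPKM + 1) called 3 in place of 5 members, and it called fewer of all genes too.

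**Figure D5:**
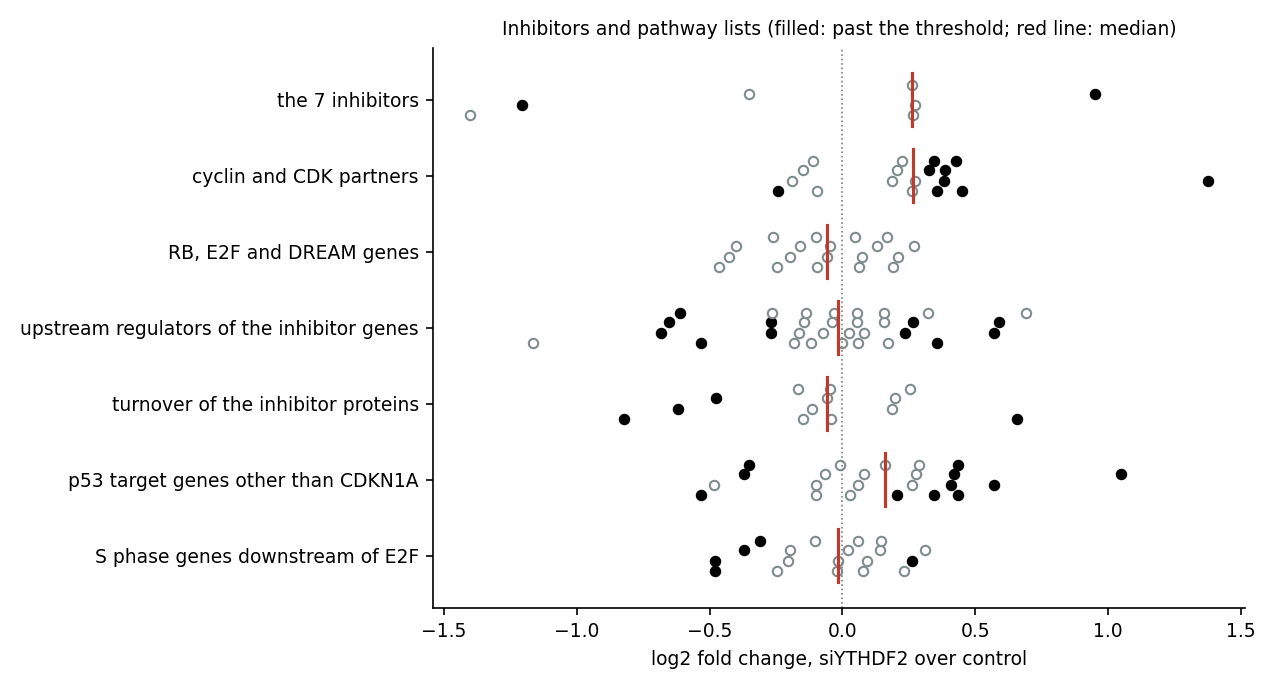
Log2 fold change, siYTHDF2 over control (horizontal axis), of the 7 inhibitors and of the tested genes in 6 lists around them. Filled points passed edgeR's test and red lines are medians. CCND1 at 1.38 is the rightmost point of the cyclin and kinase row, and the RB, E2F and DREAM row has no filled point.

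Regulators of the inhibitor genes moved in both directions. Of 32 tested members 5 were higher and 6 lower, which is 34.4% called beside 19.6% of all genes, with a median log2 fold change of -0.02. FOXO1, a forkhead factor known to activate CDKN1B and CDKN1A, had 75.4 and 72.0 CPM with siYTHDF2, against 120.2 and 116 CPM in the control (log2 fold change -0.68, SE 0.07, edgeR adjusted p = 0.000237). SMAD3, the TGF-beta signal transducer known to act on CDKN2B, had 74.6 and 74.2 CPM with siYTHDF2, against 112 and 103 CPM in the control (log2 fold change -0.53, SE 0.07, edgeR adjusted p = 0.00137). TGFBR2, the type II TGF-beta receptor, was higher at 0.59 (SE 0.08, adjusted p = 0.000905). MDM2, the ubiquitin ligase and target of p53, was higher at 0.57 (SE 0.07, adjusted p = 0.000971). These 4 calls held in all 13 alternatives. MYC, a repressor of CDKN1A and CDKN2B, had 58.9 and 50.2 CPM with siYTHDF2, against 50.9 and 54.1 CPM in the control, and the groups overlapped (log2 fold change 0.06, SE 0.09, adjusted p = 0.748). In limma on log2(FPKM + 1) the calls in this list numbered 6 in place of 11. They also fell in number when single libraries were left out. Calls over all genes fell in the same settings.

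Other target genes of p53 had 8 higher and 3 lower of 23 tested members, with a median of 0.16. That is 47.8% called, beside 19.6% of all genes. TP53I3, a p53-induced oxidoreductase, had 4.75 and 5.31 CPM with siYTHDF2, against 1.95 and 2.90 CPM in the control (log2 fold change 1.05, SE 0.26, edgeR adjusted p = 0.0203). GADD45A, a growth-arrest gene, fell by 0.35 (SE 0.08, adjusted p = 0.0134), and SESN1, a stress-induced inhibitor of mTORC1, fell by 0.53 (SE 0.13, adjusted p = 0.0179). For all 3 genes the groups did not overlap, but the calls were lost when single libraries were left out. SESN1 then stood at -0.44 without siYTHDF2 replicate 1 (adjusted p = 0.0877) and GADD45A at -0.26 without siYTHDF2 replicate 2 (adjusted p = 0.0712). TP53I3 stood at 0.79 without control replicate 1 (adjusted p = 0.0859) and at 0.96 without siYTHDF2 replicate 2 (adjusted p = 0.0537). MDM2, given above, had the smallest p of this list, and its call held in all 13 alternatives. The 11 calls numbered 5 in limma on log2(FPKM + 1), and they also fell in number whenever a single library was left out. Calls over all genes fell in the same settings. In edgeR CDKN1A changed more than every called member of this list except TP53I3.

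Genes linked to the turnover of the inhibitor proteins, not all of which remove them, had 1 higher and 3 lower of 13 tested members. Their median was -0.06. That is 30.8% called, beside 19.6% of all genes. CUL4A, the scaffold of a ubiquitin ligase that degrades p21 and p27, had 35.9 ± 1.29 CPM with siYTHDF2, against 63.5 ± 0.578 CPM in the control, as mean and SD over n = 2 each (log2 fold change -0.82, SE 0.08, edgeR adjusted p = 0.000186). CUL1, the scaffold of the SKP2 ligase that degrades p27, had 89.5 and 98.1 CPM with siYTHDF2, against 141 and 147 CPM in the control (log2 fold change -0.62, SE 0.07, adjusted p = 0.000529). PIM1, a kinase that phosphorylates p21 and p27, fell by 0.47 (SE 0.07, adjusted p = 0.00158). CKS1B, the cofactor by which SKP2 recognises p27, moved the other way, with 48.8 and 44.8 CPM with siYTHDF2, against 28.4 and 31.0 CPM in the control (log2 fold change 0.66, SE 0.10, adjusted p = 0.00169). SKP2 itself stood at 0.20 (SE 0.12, adjusted p = 0.302). The 4 calls held in all 13 alternatives.

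Apart from CDKN2B itself, no tested chromosomal neighbour of the 7 genes passed the test, beside 19.6% of all genes called. The neighbours are few, and APOLD1, DMRTA1 and SLC22A18 had counts of at most 44, so the absence of calls says little. CDKN2B lies between DMRTA1 and CDKN2A. DMRTA1 had counts of 7 and 11 with siYTHDF2, against 0 and 30 in the control, and was too low for a firm value (edgeR adjusted p = 0.795). MTAP, the methylthioadenosine phosphorylase gene on the far side of CDKN2A at a gap of 84101 bases, had counts of 8487 and 9371 with siYTHDF2, against 8095 and 8578 in the control (log2 fold change 0.16, SE 0.06, adjusted p = 0.126). SRSF3, a splicing factor gene that lies 60874 bases before CDKN1A, stood at a log2 change of -0.01 (SE 0.06, adjusted p = 0.958), and RAB44 on its other side had counts of 0 to 9. KRI1 lies 323 bases from CDKN2D on the same strand and stood at 0.31 (SE 0.10, adjusted p = 0.0501), beside 0.26 for CDKN2D. How reads at this border were assigned is not given. GPR19, an orphan receptor gene beside CDKN1B, stood at 0.54 (SE 0.20, adjusted p = 0.0894), and APOLD1 on the other side had counts of 0 to 21. Beside CDKN1C, the channel gene KCNQ1 stood at -0.08 (SE 0.15, adjusted p = 0.790) and SLC22A18 at 0.17 (SE 0.62, adjusted p = 0.890). Beside CDKN2C, FAF1 stood at 0.16 (SE 0.07, adjusted p = 0.171), and C1orf185 had counts of 0 and 0 with siYTHDF2 and 13 and 7 in the control. SLC44A2, beside CDKN2D, stood at -0.09 (SE 0.07, adjusted p = 0.396).

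The genes most like each called inhibitor were those at the smallest Euclidean distance in log2 CPM, centred per gene, over the 4 libraries, among 12344 other tested genes with a symbol. For CDKN1A these were TXNIP at a distance of 0.031, SERPINE2 at 0.044 and IFRD1 at 0.046. TXNIP had counts of 3325 and 3779 with siYTHDF2, against 1872 and 1943 in the control. For CDKN2B these were AGTR1 at a distance of 0.039, ATP6AP1 at 0.046 and MGP at 0.047. AGTR1, the angiotensin II receptor gene, had counts of 3109 and 3350 with siYTHDF2, against 7602 and 7914 in the control. With 4 libraries such a likeness mostly restates the difference between the groups.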

How the data were processed

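The authors deposited 1 table with counts and FPKM values per gene and library, named so per the file headers. The counter, strand setting, build and annotation are not given in the sources used here. Per the submitters' processing notes Bowtie 0.12.2 and a mouse build were used, and the labels' protocol speaks of retinas, neither of which matches pig gene identifiers. The deposited counts are irregular at the low end: a count of 4 was given to 682 genes in control replicate 1, a count of 3 to 274 and a count of 5 to 145.

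Libraries were grouped by title. The deposited counts were fitted with edgeR 4.0.16 in R 4.3.3 (filterByExpr with a minimum count of 10, TMM, robust quasi-likelihood test, two-sided, group as the only term), after tests on simulated data. Standard errors and 95% intervals come from that fit. Alternatives were DESeq2 1.42.0, limma 3.58.1 on log2(FPKM + 1) and log2(FPKM + 0.1), other scalings, no filter, no robust shrinkage, a replicate block and leaving out each library.

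Genes named are the 7 inhibitors, YTHDF2, per list the 4 tested genes of smallest p, chromosomal neighbours with a symbol, the 3 nearest patterns per called inhibitor, and the other CDKN symbols. Where a further gene is named (RB1, CDK2, CDK4, CDK6, MYC, SKP2, E2F2, the cell type markers), it was chosen after its values were seen. The members and lists were chosen with earlier results of these data known. GO terms were not used here. Listed genes without a value were not analysed here.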

Additional observations from a re-analysis of the deposited data

How the results depend on the processing

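The CDKN1A and CDKN2B calls held under all 13 alternatives, at log2 fold changes of 0.87 to 0.99 and -1.26 to -1.13, and none of the 7 inhibitors changed sign. Leaving out 1 library moved the log2 fold change to 0.91 to 0.98 for CDKN1A, -1.24 to -1.18 for CDKN2B, 0.17 to 0.35 for CDKN1B, -0.71 to -0.07 for CDKN1C, -1.82 to -0.81 for CDKN2A, 0.17 to 0.38 for CDKN2C and 0.03 to 0.53 for CDKN2D. It gave 791 to 1287 higher genes in place of 1408, and 1170 to 1436 lower genes in place of 1644. Among list genes it gave 4 to 8 calls for cyclins and kinases, 0 to 2 for RB, E2F and DREAM genes, 7 to 8 for upstream regulators and 5 to 7 for other p53 targets.

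Limma on log2(FPKM + 1) called 574 genes higher and 1529 lower, so 27.3% of its calls were higher, against 46.1% in edgeR. With a pseudocount of 0.1 it called 548 higher. With either pseudocount 2 inhibitors were lower, since CDKN2A passed (-0.48 and -1.19), and the lists had 1 cyclin or kinase, 6 upstream regulators, 5 other p53 targets and 3 S phase genes called. Both limma fits used the deposited FPKM with no further scaling between libraries, and those FPKM did not follow the count totals. They therefore differ from edgeR in scaling as well as in the test. The cause of the difference in calls was not tested. Scaling by library totals alone turned the balance of calls, with 1843 higher and 1457 lower genes (55.8% higher). It called 1 RB, E2F or DREAM gene (MYBL2), as did no filter (TFDP2).

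The replicate numbers are not said to mark a shared culture or day. Deviations of same-numbered libraries correlated at -0.148 over genes. With the replicate block 1020 genes were higher and 1361 lower, and the lists had 4 cyclins or kinases, 7 upstream regulators and 5 other p53 targets called. Paired crosswise, an alternative chosen after seeing the data, 1946 were higher and 1996 lower, with 2 RB, E2F or DREAM genes. Both fits called 1 inhibitor higher and 1 lower. With counts of 10 to 50, CDKN2A limits what depth can show.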

Other observations

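Other genes whose symbols begin with CDKN are no inhibitors of these families. CDKN3, a phosphatase that acts on CDK2, had 31.8 and 27.9 CPM with siYTHDF2, against 24.3 and 25.2 CPM in the control (log2 fold change 0.27, SE 0.11, edgeR adjusted p = 0.115). CDKN2AIPNL had 21.0 ± 1.43 CPM with siYTHDF2, against 26.4 ± 1.55 CPM in control cells (SD, n = 2 each), with a fitted log2 change of -0.33 (SE 0.11, edgeR adjusted p = 0.0601). CDKN2AIP, which encodes a protein that binds ARF, stood at -0.02 on the log2 scale (SE 0.11, adjusted p = 0.929). None of the 3 passed the test in edgeR, DESeq2 or limma, and 2 had an unadjusted p under 0.05 in edgeR.

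In the deposited KEGG annotation 6 of the 7 inhibitors carry the cell cycle pathway. CDKN1A, CDKN1B, CDKN2B and CDKN2D carry FoxO signalling, and these 4 had log2 fold changes of 0.95, 0.26, -1.21 and 0.26, so members of that pathway stood on both sides of 0.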
